A study of Mus musculus with 12 samples.

Results

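The genes described here encode 10 enzymes of tryptophan breakdown along the kynurenine route and of NAD synthesis. They are named by symbol for their place in the pathway, a choice made with earlier results of these data known, and all 10 were among the 13267 genes of the deposited liver table and passed the filter on low values. The data are 12 liver samples, called livers below, of C57BL/6 mice made obese and steatotic on a high-fat diet. For 6 of them a subcutaneous pellet then delivered 4-hydroxyphenylacetic acid (4-HPAA), a phenolic acid made by intestinal microbes out of polyphenols in food, for 6 weeks. The other 6 had the scaffold alone for the same time, so the controls share the diet, the obesity and the implant. The labels give no age, sex or lean group, and they do not say whether each sample came from its own mouse, so the p-values refer to the variation from sample to sample, which may be technical in part.

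The kynurenine route is the main fate of tryptophan in the liver. Tdo2, tryptophan dioxygenase, opens the indole ring, and Afmid, arylformamidase, releases kynurenine. Kynurenine is then hydroxylated by Kmo, cleaved by Kynu, or turned into kynurenic acid by transaminases such as Aadat. Haao opens the ring of hydroxyanthranilate to an unstable semialdehyde. That product either closes on its own to quinolinate, which Qprt commits to NAD synthesis, or is decarboxylated by Acmsd and leads away from NAD towards glutarate. Nampt is the rate-limiting enzyme that salvages nicotinamide, and Nadsyn1 amidates the last precursor of the de novo and nicotinic acid routes. Messenger RNA levels were measured, not enzyme activities or metabolites.

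The promoters of Aadat and Nampt are shown because Aadat had the smallest p of the 10 genes, on the higher side, and Nampt the widest difference on the lower side. Each line is the 250 bases before the RefSeq transcription start (GRCm38.p6), 5′ to 3′ in the direction of transcription. Capitals mark a nuclear receptor half-site (AGGTCA) or the longer core bound by HNF4A (CAAAGTCCA), on either strand. The Aadat window is chr8:60505874-60506123 on the plus strand, and the Nampt window chr12:32820085-32820334 on the plus strand. The gene coordinates given below are from another annotation, GENCODE M21, and start at 60505932 for Aadat and 32819545 for Nampt. By these the Nampt window lies inside the gene, and the Aadat window runs past the gene start.
Aadat: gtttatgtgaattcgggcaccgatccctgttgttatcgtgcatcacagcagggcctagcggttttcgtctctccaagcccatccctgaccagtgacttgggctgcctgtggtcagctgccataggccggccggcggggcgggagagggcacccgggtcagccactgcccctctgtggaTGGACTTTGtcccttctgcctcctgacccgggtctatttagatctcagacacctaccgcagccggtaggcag
Nampt: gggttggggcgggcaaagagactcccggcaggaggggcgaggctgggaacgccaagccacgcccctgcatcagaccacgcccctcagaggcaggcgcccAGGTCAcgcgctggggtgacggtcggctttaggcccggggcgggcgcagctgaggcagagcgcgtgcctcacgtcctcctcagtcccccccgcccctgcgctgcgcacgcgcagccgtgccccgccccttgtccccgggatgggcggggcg

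RefSeq promoters of 8 of the 10 genes were searched. By the GENCODE coordinates the windows of Tdo2, Kmo and Haao also lie inside the gene, and that of Qprt runs past its start. The Aadat window held 13 CpG and the Nampt window 27. Over 32544 distinct promoters of the same length outside chromosome 18, called all promoters below, the median was 6 and the quartiles 2 and 16. The Aadat count lay between those quartiles, and the windows of Afmid and Nadsyn1 held 15 and 23. The HNF4A core stood in the Aadat window, 64 to 72 bases before the RefSeq start but past the GENCODE one, and in none of the other 7. It is held by 0.387% of all promoters. The half-site AGGTCA stood in the windows of Nampt, Tdo2 and Haao, and 14.0% of all promoters hold it. The TATA box letters TATAAA were found in the Tdo2 window alone, 224 to 229 bases before the RefSeq start, against 12.3% of all promoters. The E-box CACGTG was found in none, against 6.03%, and the glucocorticoid receptor half-site TGTTCT in the Haao window, against 16.0%. Both strands were searched, and no match overlapped another. A match describes the letters and not a bound site.

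None of the 10 genes passed over all genes tested. By limma on log2(value + 1) with Benjamini-Hochberg adjustment, 0 of 10 had an adjusted p under 0.05, against 0.0% of the 12720 genes tested. At an unadjusted p under 0.05 there were 3, Acmsd, Aadat and Kynu, all higher in 4-HPAA livers. Over all genes 14.8% reached that level, 7.26% higher and 7.56% lower, so that 49.0% of them were higher, a share of 37.4% with libraries scaled to equal totals. Leaving out 4-HPAA replicate 4 brought 193 of all genes past the adjusted threshold, with Aadat as 1 of the 10 (limma). It also put 5 of the 10 under an unadjusted p of 0.05, the added genes being Kmo, higher, and Nampt, lower. Leaving out control replicate 1 brought 5 of all genes past the adjusted threshold and 0 of the 10 (limma). Without 4-HPAA replicate 3, a library described next, 0 of the 10 passed the adjusted threshold and 4 had an unadjusted p under 0.05, Kmo being the fourth. The exact permutation test over every split of the 12 livers into 6 and 6 put 3 of the 10, Acmsd, Aadat and Kynu, under 0.05. In 6 of the 10 genes the log2 difference (4-HPAA minus control) was above 0, with a median of 0.07, against 49.8% of genes and a median of −0.0009 over all genes. In 0 of the 10 did the 2 groups separate without overlap, which 0.66% of all genes did, 0.307% higher and 0.354% lower.

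The values deposited are normalised read counts, summing to between 22869813 and 25255447 per library. Albumin, the defining transcript of hepatocytes, took 4.98 to 7.58% of the total in 4-HPAA libraries and 7.59 to 8.72% in control libraries, and 7 of 8 hepatocyte markers were in the table. One library stood apart from the rest. On the second principal component, with 20.6% of the variance, 4-HPAA replicate 3 scored 56.45 and the other 11 livers lay between −17.03 and 7.52, so the value without it is given beside a gene's log2 difference, a list's median or a ratio where the sign turns, the value moves by over 1.5 times or an unadjusted p crosses 0.05.

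**Figure D1:**
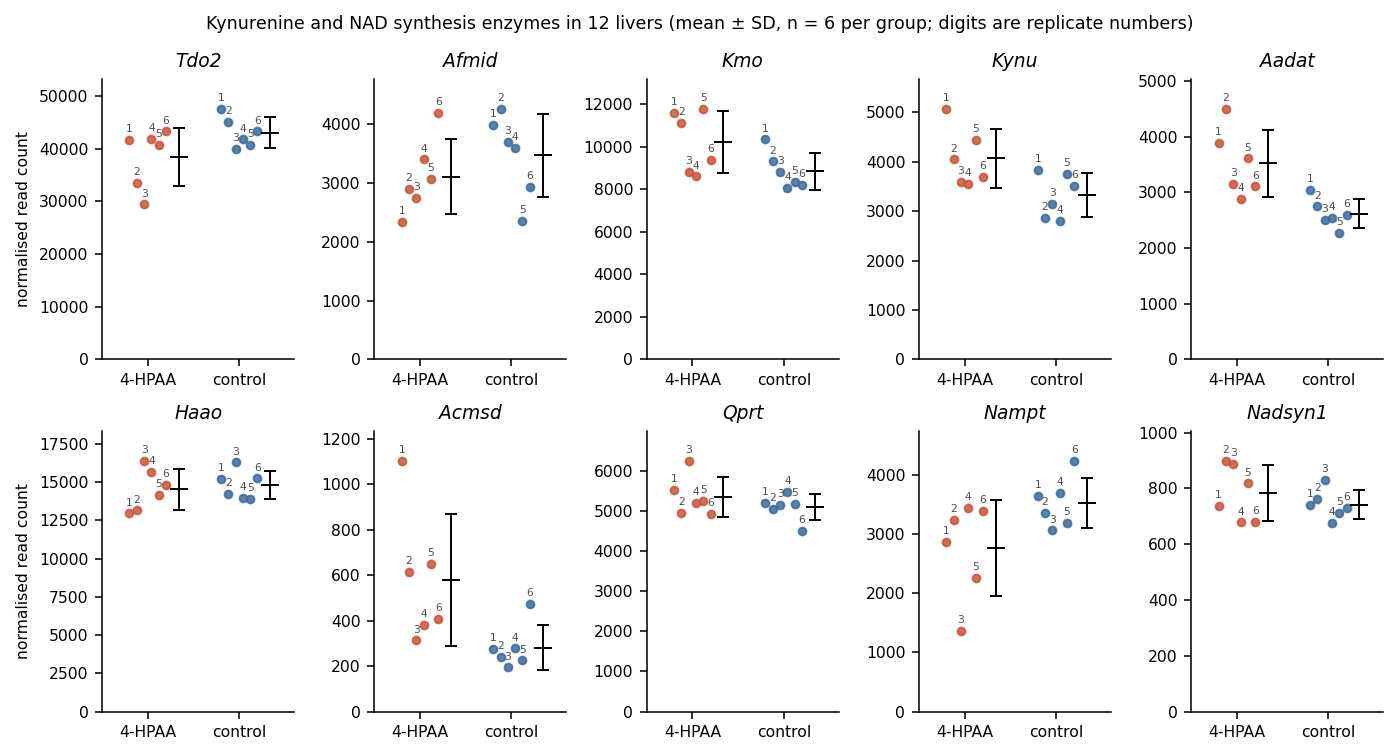
Normalised read counts (y axis, from 0) of the 10 enzyme genes in each liver, 4-HPAA in red and control in blue. Digits are replicate numbers, and bars give the mean and SD of 6 livers. The values of the 2 groups overlap in all 10 panels. Acmsd reaches 1102 in 4-HPAA replicate 1 and Nampt is at 1366 in 4-HPAA replicate 3.

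The first step of the pathway was the most abundant. Tdo2 (chromosome 3, 81957090 to 81976202, minus strand) had a lowest value of 29425, a median of 41146 and a highest of 43292 in 4-HPAA livers, against 39964, 42526 and 47547 in control livers. The low end belonged to 4-HPAA replicates 3 and 2, at 29425 and 33583, and the other 4 lay among the controls. The log2 difference was −0.18 ± 0.10 (SE), with a 95% interval of −0.39 to 0.04 (limma, adjusted p = 0.424). Without 4-HPAA replicate 3 it was −0.10.

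Afmid (chromosome 11, 117825924 to 117839908, plus strand) varied as much within each group as between them. Its lowest, median and highest values were 2336, 2980 and 4185 in 4-HPAA livers, against 2355, 3642 and 4255 in control livers. Nearly the whole range was shared, and the difference of −0.16 ± 0.16 (SE) did not pass (limma, adjusted p = 0.682).

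Both enzymes that carry kynurenine towards hydroxyanthranilate had higher averages in 4-HPAA livers. Kmo, the flavin-dependent monooxygenase of the outer mitochondrial membrane (chromosome 1, 175620381 to 175662116, plus strand), averaged 10221 ± 1441 in 4-HPAA livers and 8853 ± 864 in control livers (SD, n = 6 each). The 4-HPAA livers split: replicates 1, 2 and 5 held 11588, 11134 and 11781, above every control, while replicates 3, 4 and 6, at 8819, 8605 and 9398, did not exceed the highest control, whose group spanned 8056 to 10348. The log2 difference was 0.20 ± 0.10 (SE), with an interval of −0.01 to 0.41 (limma, adjusted p = 0.364). Without 4-HPAA replicate 3 it was 0.24, with an unadjusted p = 0.0261 and an adjusted p = 0.201 (limma).

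Kynu, the pyridoxal phosphate-dependent kynureninase (chromosome 2, 43555329 to 43682715, plus strand), had 3548, 3875 and 5069 as its lowest, median and highest values in 4-HPAA livers, against 2808, 3337 and 3830 in control livers. All 6 4-HPAA livers lay above the control mean, and 3 of them above the highest control. The log2 difference was 0.29 ± 0.11 (SE), an interval of 0.06 to 0.52, with an unadjusted p = 0.0184 by limma and 0.0368 by exact permutation (two-sided, n = 6 each), and an adjusted p = 0.242 over all genes.

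Aadat, a mitochondrial aminotransferase that makes kynurenic acid and also acts on aminoadipate of lysine breakdown (chromosome 8, 60505932 to 60545677, plus strand), had the smallest p of the 10. Its lowest, median and highest values were 2881, 3380 and 4498 in 4-HPAA livers, against 2270, 2570 and 3041 in control livers. Of the 6 4-HPAA livers 5 lay above every control, and replicate 4, at 2881, lay below control replicate 1 alone, at 3041. The log2 difference was 0.42 ± 0.11 (SE), an interval of 0.19 to 0.65, with an unadjusted p = 0.00168 by limma and 0.00433 by exact permutation (two-sided, n = 6 each). Over all genes its adjusted p was 0.148 (limma), and it was 0.0467 without 4-HPAA replicate 4 and 0.0488 with limma's array weights.

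Haao, the iron-dependent dioxygenase that follows Kynu (chromosome 17, 83831156 to 83847963, minus strand), was close in both groups, at 14517 ± 1358 in 4-HPAA livers and 14803 ± 940 in control livers (SD, n = 6 each). Its log2 difference was −0.03 ± 0.08 (SE), and the interval of −0.19 to 0.13 bounds how far the groups could differ. Without 4-HPAA replicate 3 it was −0.07.

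Acmsd, which draws the pathway's semialdehyde away from NAD synthesis (chromosome 1, 127729413 to 127767978, plus strand), had the widest difference of the 10. Its values in 4-HPAA replicates 1 to 6 were 1102, 614, 313, 383, 650 and 408, against 275, 240, 194, 278, 225 and 474 in control replicates 1 to 6. All 6 4-HPAA livers lay above the control mean of 281, and 5 of the 6 controls lay below every 4-HPAA liver, the exception being control replicate 6. The mean was 2.06 times as high in 4-HPAA livers, and the log2 difference was 0.97 ± 0.29 (SE), an interval of 0.35 to 1.59. Its unadjusted p was 0.00503 by limma and 0.0173 by exact permutation (two-sided, n = 6 each), and its adjusted p over all genes was 0.193, or 0.0468 with array weights (limma). It was also the most variable member, with a coefficient of variation of 50.0% in 4-HPAA livers and 35.5% in control livers, where those of the other 9 genes were 9.18 to 29.5% and 6.3 to 20.3%.

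Qprt, the enzyme on the other side of that fork (chromosome 7, 127107114 to 127122226, minus strand), averaged 5349 ± 491 in 4-HPAA livers and 5095 ± 321 in control livers (SD, n = 6 each). The difference of 0.07 ± 0.07 (SE), with an interval of −0.09 to 0.23, did not pass (limma, adjusted p = 0.721), and was 0.02 without 4-HPAA replicate 3.

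**Figure D2:**
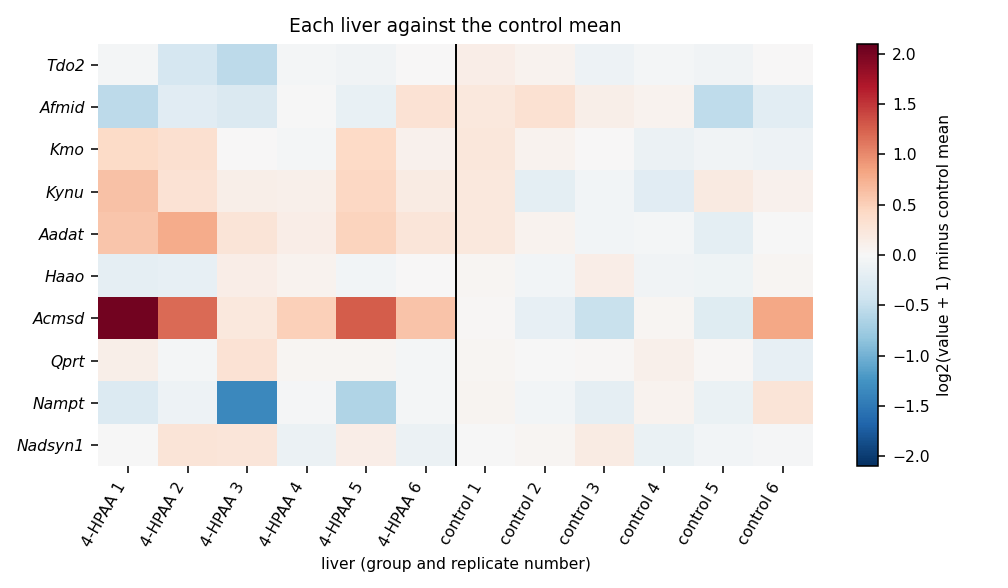
Log2(value + 1) of each enzyme gene (rows, in pathway order) in each liver (columns, 4-HPAA left of the line and control right of it), minus the mean of the 6 controls. Red is higher and blue is lower than that mean. Kmo, Kynu, Aadat and Acmsd are reddest in 4-HPAA replicates 1, 2 and 5, and the darkest blue is Nampt in 4-HPAA replicate 3.

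The higher averages came mostly from the same livers. The 3 highest 4-HPAA values of Kmo, Kynu, Aadat and Acmsd were all those of replicates 1, 2 and 5, as the map of livers against the control mean shows, while no other gene of the 10 had that trio on top. The same 3 libraries had the highest scores on the first principal component, 37.77, 31.13 and 28.65, against −31.52 to 12.22 in the other 9. They were also 3 of the 4 with high Saa1, an acute phase transcript looked at after its values were known. Saa1 stood at 37622, 63934 and 27065 in 4-HPAA replicates 1, 2 and 5 and at 12759 in replicate 3, but at 2844 and 2196 in replicates 4 and 6, against 1270 to 2690 in control livers. The part of the acute phase in these values was not tested.

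Nampt, the salvage enzyme (chromosome 12, 32819545 to 32853349, plus strand), had the widest difference on the lower side. Its values in 4-HPAA replicates 1 to 6 were 2862, 3241, 1366, 3437, 2254 and 3395, against 3638, 3354, 3061, 3697, 3188 and 4231 in control replicates 1 to 6. All 6 4-HPAA livers lay below the control mean of 3528, and 3 lay below every control. The log2 difference was −0.41 ± 0.20 (SE), an interval of −0.83 to 0.01, and did not pass (limma, adjusted p = 0.346). Leaving out the outlying library, 4-HPAA replicate 3, gave −0.22.

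Nadsyn1 (chromosome 7, 143795584 to 143822849, minus strand) averaged 783 ± 98.9 in 4-HPAA livers and 742 ± 52.8 in control livers (SD, n = 6 each). Its difference was 0.07 ± 0.09 (SE), in an interval of −0.12 to 0.26, and was 0.03 without 4-HPAA replicate 3.

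**Figure D3:**
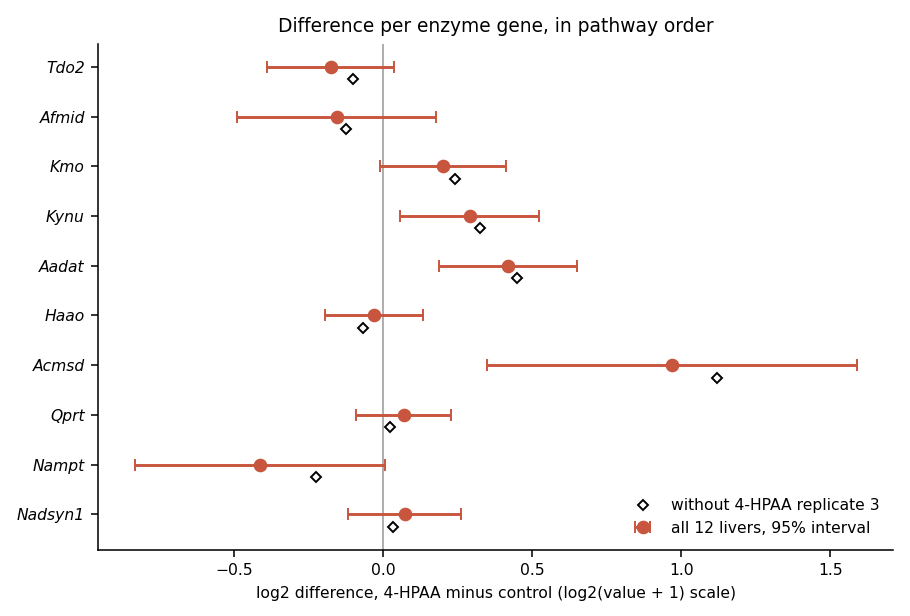
Log2 difference, 4-HPAA minus control, of each enzyme gene (x axis; genes down the page in pathway order). Filled circles with bars are the values of all 12 livers with 95% intervals from limma, and open diamonds are the values without 4-HPAA replicate 3. The intervals of Kynu, Aadat and Acmsd lie above 0, and the diamond of Nampt sits at −0.22.

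Set on one scale by dividing each value by the length of the gene's merged exons, Tdo2 led in both groups, with 9894 ± 1434 normalised counts per kilobase in 4-HPAA livers and 11097 ± 738 in control livers (SD, n = 6 each). Haao followed, at 3101 ± 290 in 4-HPAA livers and 3162 ± 201 in control livers. In each group every liver's Tdo2 level lay above every Haao level, and every Haao level above those of the next gene. Kmo and Qprt came next and overlapped each other, then Aadat, Afmid, Kynu and Nampt, whose neighbours overlapped in at least one group. Nadsyn1 and Acmsd were the lowest, Acmsd with 204 ± 102 per kilobase in 4-HPAA livers and 99.3 ± 35.2 in control livers. All Acmsd levels lay below all Nadsyn1 levels in control livers, and in 4-HPAA livers the 2 genes overlapped, through replicates 1, 2 and 5. Merged exons cover every annotated transcript of a gene, expressed or not. The levels may therefore be understated by unequal amounts, and the order of genes is approximate.

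At the fork after Haao, the log2 ratio of Acmsd to Qprt averaged −3.33 ± 0.70 in 4-HPAA livers and −4.24 ± 0.51 in control livers (SD, n = 6 each). It was above every control in 3 of 6 4-HPAA livers, and replicate 3, at −4.31, lay among the controls. At the kynurenine fork, the log2 ratio of Kmo to Aadat averaged 1.54 ± 0.13 in 4-HPAA livers and 1.76 ± 0.09 in control livers, and 5 of 6 4-HPAA livers lay below every control. The log2 ratio of Nampt to Nadsyn1 averaged 1.76 ± 0.64 in 4-HPAA livers and 2.24 ± 0.24 in control livers, with its lowest value, 0.62, in 4-HPAA replicate 3. The difference in that ratio, 4-HPAA minus control, was −0.49, or −0.26 without that library. These ratios compare transcripts within a library, so they do not move with its scaling. They carry no test because the genes were chosen with earlier results known.

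**Figure D4:**
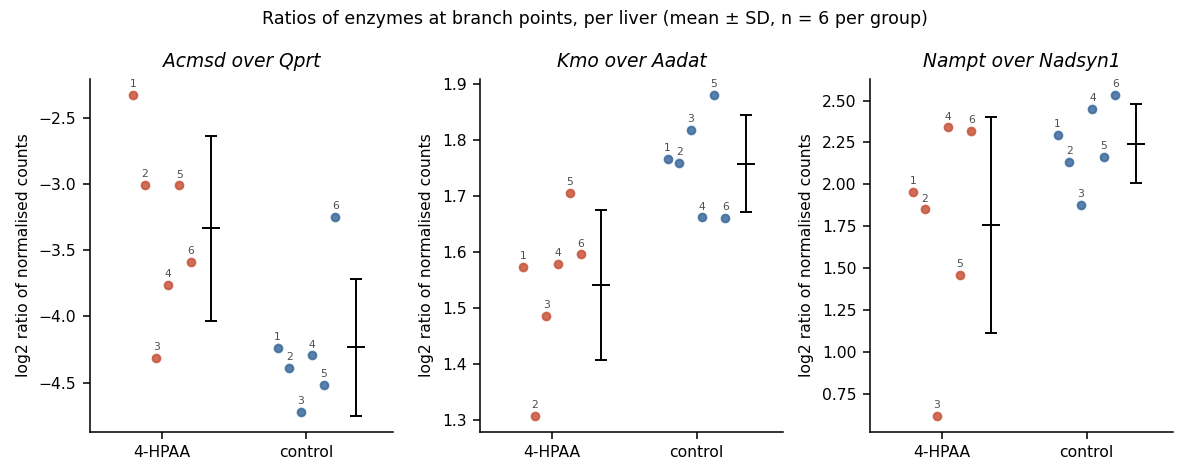
Log2 ratio of 2 enzymes in each liver (y axes), 4-HPAA in red at the left and control in blue at the right, with the mean and SD of 6 livers. Digits are replicate numbers. In Kmo over Aadat, 4-HPAA replicate 5, at 1.71, is the 1 liver of its group that reaches the control range.

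Genes around the pathway were read from lists chosen for their role, and none of them passed over all genes tested (limma, adjusted p under 0.05: 0 higher and 0 lower in each of 8 lists). The counts at an unadjusted p under 0.05 that follow stand against 7.26% of all genes higher and 7.56% lower, 14.8% in all. Among genes of tryptophan uptake and its other fates, 14 of 19 were tested, with 3 higher and 1 lower at an unadjusted p under 0.05 (28.6%) and a median of 0.04. Slc7a5, the large neutral amino acid transporter that carries tryptophan, stood at 62 to 91 in 4-HPAA livers and 41 to 59 in control livers, low values without overlap, a log2 difference of 0.47 ± 0.13 (SE). Ddc, the decarboxylase of aromatic amino acids, averaged 944 ± 249 in 4-HPAA livers and 603 ± 70.6 in control livers (SD, n = 6 each), and Kyat1, another transaminase of kynurenine, differed by 0.38 ± 0.15 (SE). The 1 on the lower side was Maoa, the monoamine oxidase that degrades serotonin, at −0.35 ± 0.14 (SE). Ido2, a second tryptophan-cleaving enzyme, was at 0.06 ± 0.10.

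The 9 genes below Acmsd that carry its product to acetyl-CoA had a median difference of −0.04. Aldh8a1, the aldehyde dehydrogenase that follows Acmsd, was at 0.12 ± 0.06 (SE) and Acat1, the mitochondrial thiolase at the end of the route, at −0.20 ± 0.08, the 1 gene of the list with an unadjusted p under 0.05 (limma, 0.0276), which is 11.1% of the list.

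Other NAD and NADP synthesis genes lay mostly on the lower side, 9 of 12 tested, with a median of −0.13. At an unadjusted p under 0.05 there were 3 of the 12, all lower, against the 7.56% of all genes. Prps2, which makes the phosphoribosyl pyrophosphate used by Qprt and Nampt, stood at 225 to 374 in 4-HPAA livers and 375 to 472 in control livers, without overlap, a difference of −0.34 ± 0.12 (SE). Its relative Prps1 averaged 713 ± 65.5 in 4-HPAA livers and 704 ± 64.1 in control livers (SD, n = 6 each). The difference of Prps1 was 0.02 ± 0.08 (SE), or 0.07 without 4-HPAA replicate 3. Nt5e, an ectonucleotidase that also acts on extracellular NAD precursors, differed by −0.67 ± 0.22 and Nadk, which phosphorylates NAD to NADP, by −0.14 ± 0.07. Naprt, the entry of nicotinic acid, was at 0.10 ± 0.09 and at 0.05 without 4-HPAA replicate 3, and Nmnat1, the nuclear enzyme that forms NAD, at −0.07 ± 0.07.

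Of 19 genes that use NAD or clear nicotinamide, 3 were higher and 1 lower at an unadjusted p under 0.05 (21.1%), with a median of 0.04. Nnmt, which methylates nicotinamide and so takes it from salvage by Nampt, had values of 3252 to 6641 in 4-HPAA livers and 2058 to 3081 in control livers. The groups did not overlap, and the log2 difference was 0.85 ± 0.16 (SE; limma, adjusted p = 0.103). Aox3, an aldehyde oxidase able to oxidise methylnicotinamide, averaged 17120 ± 2721 in 4-HPAA livers and 13271 ± 1639 in control livers (SD, n = 6 each), a difference of 0.36 ± 0.12 (SE). Aox1, another aldehyde oxidase of that list, was on the other side of 0, at −0.17 ± 0.15 (SE). The third on the higher side was Parp14, a mono-ADP-ribosyltransferase, at 0.17 ± 0.07. Nnt, the transhydrogenase of the inner mitochondrial membrane, was the 1 on the lower side, at −0.23 ± 0.10. Without 4-HPAA replicate 3 it was at −0.21 ± 0.10 and no longer under that level. In that setting 4 genes of the list were higher and 1 lower at an unadjusted p under 0.05 (limma). The 1 lower was Sirt5, at −0.29 ± 0.09 (SE), and Sarm1, a gene of low values, joined the higher side at 0.72 ± 0.31. Sirt1, an NAD-dependent deacetylase, had 375, 436, 154, 464, 351 and 458 in 4-HPAA replicates 1 to 6, against 286 to 407 in control livers. Its difference was −0.03 ± 0.23 (SE) with all livers and 0.21 ± 0.11 without 4-HPAA replicate 3, the library at 154. Parp1, another NAD consumer, was at 0.13 ± 0.08.

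**Figure D5:**
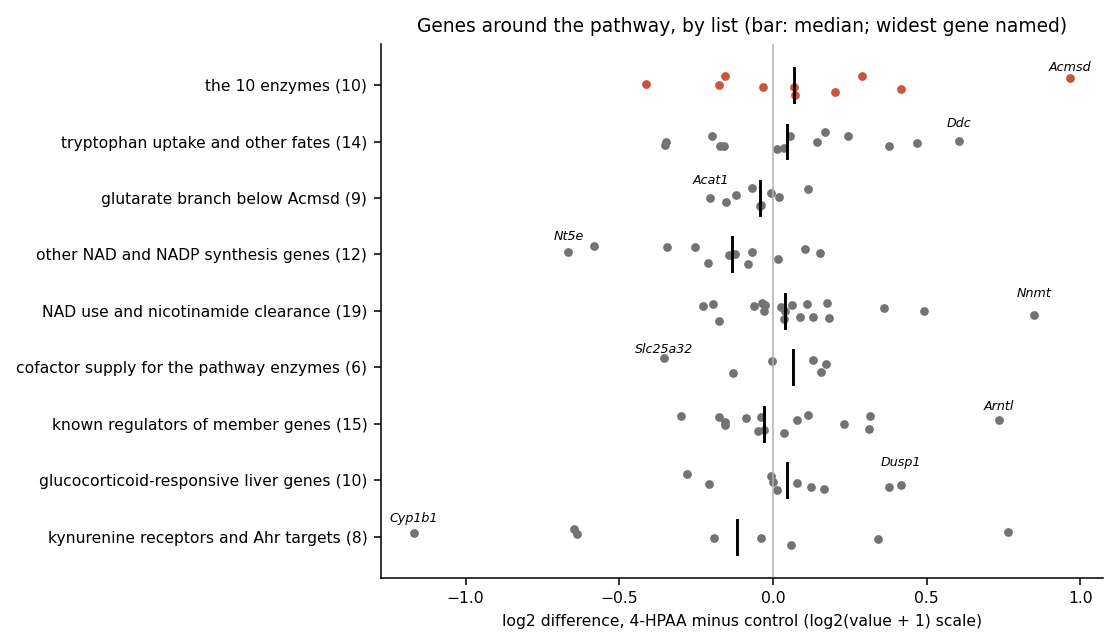
Log2 difference, 4-HPAA minus control (x axis), of the 10 enzyme genes (red, top) and of 8 lists of genes around the pathway (grey), with 1 point per gene, a bar at each list's median and the gene of widest difference named. Numbers in brackets are genes tested. Nnmt lies at 0.85 and Acmsd at 0.97.

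Among genes known to regulate these enzymes, 15 were tested and their median was −0.03, or 0.12 without 4-HPAA replicate 3. At an unadjusted p under 0.05 there were 2 higher and 0 lower, against 4 higher and 1 lower without that library. Hnf4a, the nuclear receptor of hepatocyte identity, was not among these, with or without that library. Its averages were 15502 ± 2328 in 4-HPAA livers and 13251 ± 2257 in control livers (SD, n = 6 each). The difference of Hnf4a was 0.23 ± 0.13 (SE), with an unadjusted p = 0.0855 (limma). Arntl, the clock factor BMAL1, was at 0.74 ± 0.32, with an unadjusted p = 0.0344 (limma). Its values were low and overlapped, at 22 to 86 in 4-HPAA livers and 12 to 37 in control livers. Of the other clock genes, Clock was at 0.11 ± 0.16, Per2 at 0.31 ± 0.22 and Nr1d1, the repressor REV-ERB alpha, at −0.17 ± 0.23. Without 4-HPAA replicate 3 they were at 0.28, 0.46 and −0.39, each with an unadjusted p under 0.05 (limma). Tdo2 is a classical glucocorticoid-induced gene, and none of the 10 tested glucocorticoid-responsive genes had an unadjusted p under 0.05, their median being 0.05, or 0.15 without 4-HPAA replicate 3. The classical member Tat spread from 23360 to 83044 in 4-HPAA livers and from 26095 to 52274 in control livers. Ahr is a receptor that kynurenine metabolites can activate. The 8 tested genes of the kynurenine receptors and Ahr targets had a median of −0.12, or 0.02 without 4-HPAA replicate 3. At an unadjusted p under 0.05, 1 was higher and 2 were lower. Cyp1a2 was at 0.76 ± 0.18 (SE), while Nqo1 was at −0.65 ± 0.24 and Cyp1b1, with values of 4 to 15 in 4-HPAA livers and 13 to 37 in control livers, at −1.17 ± 0.36. Cyp1a1, with values of 14 to 27 in 4-HPAA livers and 6 to 21 in control livers, was at 0.34 ± 0.29. Tiparp was at −0.19 ± 0.15, or −0.07 without 4-HPAA replicate 3. Ahr itself was at −0.04 ± 0.25, or 0.12 without that library. Of the 6 tested genes that supply the flavin and pyridoxal cofactors, Flad1, which makes the flavin cofactor of Kmo, was at 0.17 ± 0.07. It was the 1 gene of that list with an unadjusted p under 0.05 (limma), and without 4-HPAA replicate 3, at 0.14 ± 0.06, there was none. The list's median was 0.07, or 0.04 without that library.

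In whole liver, fewer cells of a type and less RNA per cell cannot be told apart, and some markers of other cells had different sums in the groups. Stellate cell and fibroblast markers summed to 3834 to 7329 in 4-HPAA livers and 6136 to 9179 in control livers, and 8 of 8 had negative differences, or 7 of 8 without 4-HPAA replicate 3. Of the 6 adipocyte markers 3 were in the table, Cfd, Fabp4 and Cidea. Their sum was 153 to 675 in 4-HPAA livers and 483 to 1576 in control livers. The table holds no Adipoq, Plin1 or Lep, so the sum rests on those 3 alone. Macrophages also express Kmo, Kynu and Nampt. Their 12 markers summed to 3938 to 6990 in 4-HPAA livers and 2924 to 9892 in control livers, with 4 positive and 8 negative differences and a median of −0.12, or −0.23 without 4-HPAA replicate 3. The 7 hepatocyte markers summed to 2090916 to 2747669 in 4-HPAA livers and 2435931 to 2979305 in control livers, and most of that sum is Alb. They did not move one way, with 4 positive and 3 negative differences and a median of 0.07, or 0.03 without 4-HPAA replicate 3. Alb differed by −0.38 ± 0.10 (SE), while Serpina1c, an alpha-1 antitrypsin, differed by 0.38 ± 0.14 and Cps1, the first enzyme of the urea cycle, by 0.36 ± 0.17. The part of cell makeup in the values of the 10 genes was not tested.

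As a description of likeness, each gene was set against all tested genes after the group means were subtracted, over 12 livers. Acmsd was most like Dnttip2, Dhx33 and Nolc1 (Pearson r of 0.978, 0.966 and 0.938, and 0.973, 0.959 and 0.93 without 4-HPAA replicate 3). Aadat was most like Las1l, Snw1 and Cfb, with r of 0.956, 0.908 and 0.896. Kynu was most like Trmt5, Pdhx and Heatr3, with r of 0.934, 0.933 and 0.92. Nampt was most like Cd2ap, Ireb2 and Tug1, with r of 0.992, 0.988 and 0.986, and of 0.97, 0.956 and 0.946 without 4-HPAA replicate 3. These were the highest values among 12720 genes, and the points compared share the depth and scaling of their library.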

How the data were processed

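RNA of 12 mouse liver samples was sequenced as directional mRNA libraries, per the labels' protocols. Per the submitters' processing notes, the build was GRCm38 and the tools included STAR, HTSeq, cutadapt, edgeR, DESeq2 1.28.1 and FastQC 0.11.9. The sources used here do not give their roles, the annotation release or the use of strand in counting. Values deposited by the authors are whole numbers but not raw counts, and were handled as a score: read counts that the authors scaled by library and rounded. The values themselves show it, since in 5 of 12 libraries some whole number from 10 to 60 never occurs. The smallest value is 2. The reads behind each library are therefore not known exactly, and the totals given are sums of scaled values. Small values carry large counting error.

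Each gene is listed under 1 Ensembl transcript ID, which GENCODE M21 (GRCm38) named for 13203 of 13267. For Tdo2, Afmid, Kmo and Nampt that ID is a non-coding transcript of the gene. Over protein-coding genes the median value was 444 where the listed transcript is non-coding and 327 where it is coding, and values were read as gene totals. Gene coordinates and merged exon lengths are from the same annotation; promoter sequences are from RefSeq (GRCm38.p6).

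A test for counts could not be used on scaled values. Genes were kept where 6 or more libraries reached 10, which left 12720. Their log2(value + 1) was fitted with limma 3.58.1 in R 4.3.3, trend and robust settings on, and the genes described were read from that fit. Fold changes on this scale understate those of low genes. P-values were adjusted by Benjamini-Hochberg over all genes tested, with a threshold of 0.05; SE and 95% intervals are limma's. The fit was tested on simulated data drawn independently for each gene and library. Such data hold no structure shared by the genes of a library, so they cannot show how the fit behaves under it. The genes and lists were chosen with earlier results of these data known, so no p was adjusted over a list and no list was tested. For lists, the genes of smallest p were preferred for naming. Alternatives were other pseudocounts, filters, scalings and variance settings, array weights, a replicate block, exact permutation and leaving out each library. For lists and ratios, leaving out libraries was added after seeing the data. Python 3.11.15 and matplotlib 3.10.9 made the figures. One promoter and a gene of the lists are not reported here.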

Additional observations from a re-analysis of the deposited data

Results flagged for a closer look

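In control replicate 6, Acmsd stood at 474, far above the other 5 controls at 194 to 278. The log2 ratio of Acmsd to Qprt in the same liver, at −3.25, was likewise far from the other controls, at −4.72 to −4.24. Both were picked out by the gap to the nearest liver divided by the range of the group. In all, 26 groups of 6 were looked at in this way, and chance alone marks about 1 in 20. Without control replicate 6 the log2 difference of Acmsd was 1.13 (4-HPAA minus control; limma, adjusted p = 0.109; its 23 alternatives gave 0.0468 to 0.360).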

How the results depend on the processing

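Over 23 alternatives each, 9 of the 10 genes kept the sign of their log2 difference. Haao did not: with 1 library left out it ranged from −0.067 to 0.0009, the high end without 4-HPAA replicate 1, against −0.03 with all. No alternative brought a gene under an adjusted p of 0.05 except Aadat (without 4-HPAA replicate 4 and with array weights) and Acmsd (with array weights). The count of the 10 genes that passed was thus 2 with array weights and 0 to 1 with 1 library left out. At an unadjusted p under 0.05 there were 3, against 5 with scaling to equal totals and 5 with quantile normalisation. Those settings added Tdo2 and Nampt, both lower in 4-HPAA livers. The replicate block gave 5, and leaving out 1 library gave 3 to 5, the 5 being without 4-HPAA replicate 4. With the replicate block, and without that library, the added genes were Kmo, which was higher, and Nampt, which was lower. Acmsd, Aadat and Kynu were under an unadjusted p of 0.05 in all 23 alternatives. Nampt ranged from −0.49 to −0.22, the end nearest 0 being that without 4-HPAA replicate 3. Of the genes named from lists, Sirt1 turned to 0.21 and Ahr to 0.12 without that library.

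Over all genes the count past an adjusted p of 0.05 was 0, against 139 with array weights, 11 with the replicate block, 5 without control replicate 1, 193 without 4-HPAA replicate 4 and 0 with each other library left out. At an unadjusted p it was 1886, against 3050 with array weights and 1324 to 2490 with 1 library left out, and 1825 by exact permutation, which cannot go below p = 0.00216 and gave 0 after adjustment. The share of such genes that were higher was 49.0%, against 37.4% with equal totals and 60.4% with the stricter filter. The labels do not say whether the shared replicate numbers pair the livers. Same-numbered livers correlated at −0.18 to 0.28 in their deviations from the group means. Of the 4-HPAA livers, 2 of 6 correlated best with their own number. These values cannot settle whether there was a pairing. The causes were not tested. Values near 10, as of Cyp1b1, are limited by depth.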
